A study of Pyrus syriaca and Pyrus pyrifolia and Pyrus communis with 12 samples.

Results

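The miR396 family was followed through exudates and stigmas of pear as 6 mature sequences out of the 355 unique Rosaceae miR sequences counted, of which 120 had a read. The members were taken by name from the count table: mdm-miR396a, mdm-miR396b and mdm-miR396c of apple, ppe-miR396a of peach, and fve-miR396a-3p and fve-miR396b-3p of woodland strawberry. Exudate and stigma each gave 1 library per genotype, 12 in all. The genotypes were 3 wild P. syriaca populations (Golan at an altitude of 900 m, Manara at 450 m and SASA at 830 m), the P. pyrifolia cultivars Hosui and Shinsui, and the P. communis cultivar Spadona, the cultivars all at 430 m. Every library came from pooled flowers of blooming branches kept overnight in a growth room, and both tissues were taken at 12 hours after anthesis (HAA) from stigmas without pollination. Wild against cultivated is therefore also a comparison of species, and altitude cannot be told apart from it. A library held 27 to 176 miR reads in exudates (422 in all) and 199 to 1777 in stigmas (5276 in all), so that a share of 0 in a single exudate allows, at 3 reads of the total, from 1.70% (Manara) to 11.1% (SASA).

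A plant miR is cut from a hairpin as a duplex of 2 strands, named 5p and 3p after the arm they come from. One strand is loaded into an ARGONAUTE protein and guides it to matching transcripts, and the other is usually degraded. In miR396 the 5p strand is the well-known guide, whose best studied targets are transcripts of growth-regulating factors (GRFs), transcription factors that promote cell division in leaves, flowers and other growing organs. The 3p strand is usually regarded as the passenger strand.

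The mature sequences are given as the deposited table holds them, 5′ to 3′, with the seed (bases 2 to 8) in capitals, because the comparison of arms rests on them and because the near identity of the 5p-type rows limits what single rows can show.
mdm-miR396a: uUCCACAGcuuucuugaacag
mdm-miR396b: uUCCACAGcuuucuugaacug
mdm-miR396c: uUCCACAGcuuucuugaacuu
ppe-miR396a: uUCCACAGcuuucuugaacgu
fve-miR396a-3p: gUUCAAUAaagcugugggaag
fve-miR396b-3p: gCUCAAGAaagcugugggaca

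The 4 rows without 3p in the name shared the seed and their 19 opening bases of 21, and are called 5p-type here. They differed only at the 3′ end: counted from the 5′ end, mdm-miR396a and mdm-miR396b differed by A20U, mdm-miR396b and mdm-miR396c by G21U, and mdm-miR396c and ppe-miR396a by U20G. The table lists fve-miR396a-5p as a name of the mdm-miR396b sequence, and fve-miR396b-5p as a name of the mdm-miR396c sequence, so both arms of these strawberry hairpins are in the table. When the arms of each were laid against each other with an overhang of 2 bases, 17 of 19 facing bases formed Watson-Crick pairs, 1 formed a G-U pair and 1 was unpaired. The 3p rows had different seeds. Their Rosaceae names are of strawberry only, whereas those of the 5p-type rows are of apple, peach and strawberry.

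Among the positions that the table gives for the hairpins, with a build not given in the sources used here, fve-MIR396a was on LG3 from 1706973 to 1707079 and fve-MIR396b on LG1 from 2526777 to 2526911, both on the minus strand. In peach, ppe-MIR396a was on G1 from 40254306 to 40254403 on the minus strand. In apple, a copy of mdm-MIR396c (23887 to 23993, plus strand) and mdm-MIR396a (32684 to 32832, minus strand) stood on the same contig, MDC003523.387, with 8690 bases between them. The table does not say what the annotation holds at these positions, and the pear loci were not looked up.

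In the stigma the family was read mainly from its 5p-type sequences, led by mdm-miR396b and mdm-miR396c, whereas 7 of the 10 miR396 reads in exudates were of the 3p arm. mdm-miR396b had 1 exudate read, in Spadona, against stigma reads of 14 in Golan, 35 in Manara, 10 in SASA, 2 in Hosui, 1 in Shinsui and 5 in Spadona. It was the only member read in every stigma. mdm-miR396c had 1 exudate read each in Manara and Spadona, against stigma reads of 17 in Golan, 35 in Manara, 7 in SASA, 2 in Hosui, 0 in Shinsui and 5 in Spadona. Counts of these rows were equal in 8 of 12 libraries and never differed by more than 3 reads.

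mdm-miR396a was listed at 0 in all 6 exudates, against stigma reads of 4 in Golan, 14 in Manara, 3 in SASA, 0 in Hosui, 0 in Shinsui and 2 in Spadona. ppe-miR396a was likewise at 0 in the exudates, against stigma reads of 4 in Golan, 14 in Manara, 2 in SASA, 0 in Hosui and Shinsui, and 2 in Spadona. These rows had equal counts in 11 of 12 libraries and 1 read of difference in the other. Their sequences differ by A20G and G21U. Up to 7% mismatches, which is 1 base in 21, were allowed when reads were assigned. The study's methods also let a read be offset from the mature sequence and overlap it only in part. The 3′ bases that set the 5p-type rows apart need not lie in such a read. A read may therefore have been counted in more than 1 of these rows, and their number of independent reads is not known.

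The 3p arm was read more evenly between the tissues. For fve-miR396a-3p the Manara exudate held 3 reads, the Hosui exudate 1 and the other 4 exudates 0, against stigma reads of 5 in Golan, 8 in Manara, 4 in SASA, 1 in Hosui, 0 in Shinsui and 4 in Spadona. fve-miR396b-3p had 1 exudate read each in Manara, SASA and Spadona, against stigma reads of 1 in Golan, 5 in Manara, 1 in SASA, 2 in Hosui, 0 in Shinsui and 1 in Spadona. Only fve-miR396a-3p reached 2 reads in an exudate, the number the study's methods set for presence, whereas all 6 members reached it in a stigma. By the study's criteria fve-miR396a-3p was common to both tissues, mdm-miR396a and ppe-miR396a were stigma-specific, and mdm-miR396b, mdm-miR396c and fve-miR396b-3p were set aside because they had no more than 1 read in any exudate.

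**Figure D1:**
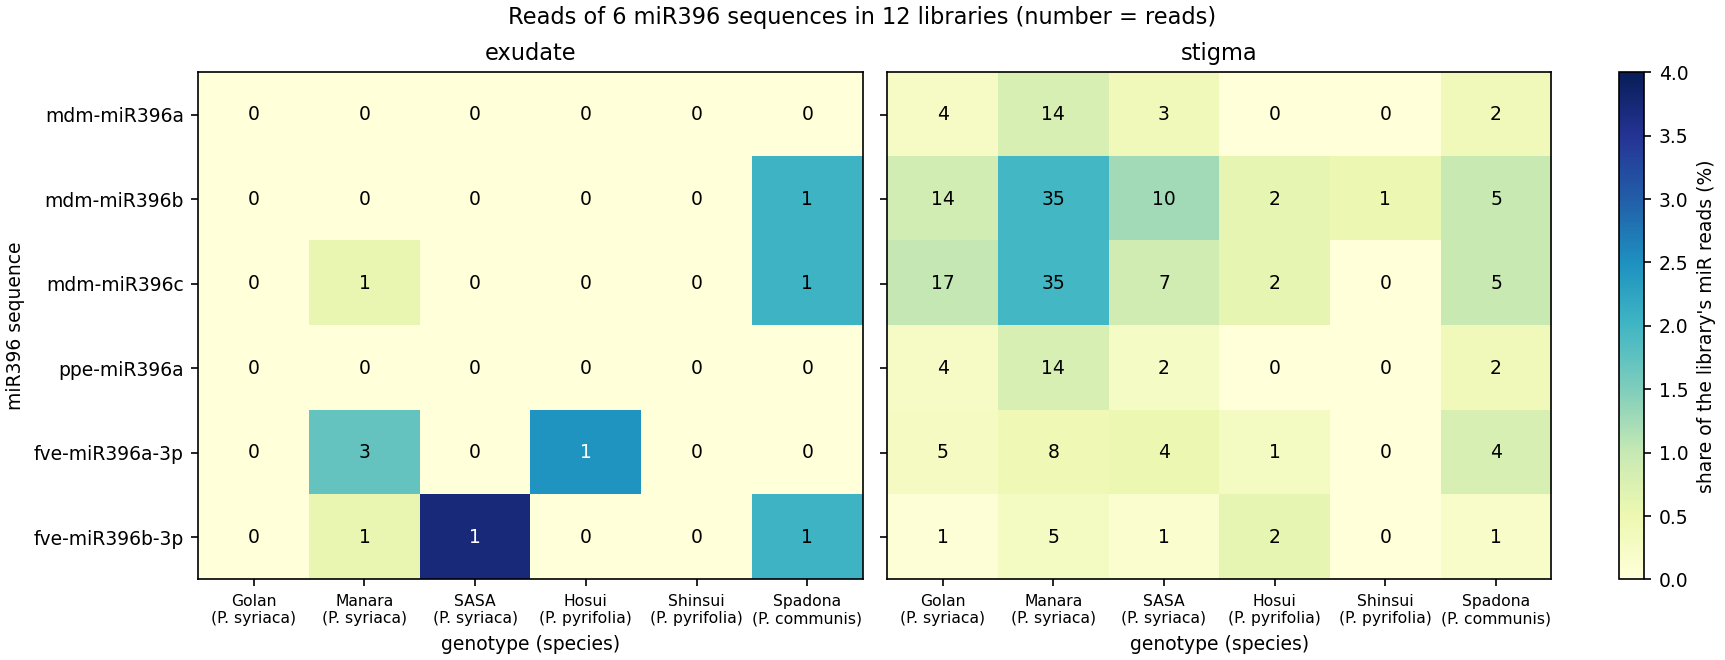
Reads of the 6 miR396 sequences (rows) in each genotype (columns), exudates on the left and stigmas on the right; the number is the read count and the colour the share of all miR reads of that library in percent. Exudate cells hold at most 3 reads, while mdm-miR396b and mdm-miR396c reach 35 reads in the Manara stigma, and a single read in the shallow SASA exudate already makes 3.70%.

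Another 2 rows of the table carry the family name and lie outside the chosen members. mdm-miR396f, whose sequence differs from mdm-miR396b by A7G within the seed, had 1 exudate read, in Golan, against stigma reads of 2 in Manara, 2 in Spadona and 1 in Hosui. fve-miR396e had no read.

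For the tissues to be compared at unlike depth, reads were expressed as a share of all miR reads of a library. The 5p-type rows together made 0%, 0.568%, 0%, 0%, 0% and 4.08% of the exudates of Golan, Manara, SASA, Hosui, Shinsui and Spadona, against 2.35%, 5.51%, 2.77%, 1.19%, 0.503% and 2.73% of the stigmas in the same order. The share was lower in exudate than in stigma in 5 of 6 genotypes, the exception being Spadona, whose exudate value rests on 2 reads. It averaged 0.775% ± 1.64 in exudates and 2.51% ± 1.73 in stigmas (SD, n = 6 each), and the exact sign-flip test over the genotypes, two-sided, did not pass the threshold (p = 0.125, where the smallest possible is 0.031). No 5p-type read was found in 4 of the 6 exudates, where 0.40 to 1.18 reads would have come at the stigma share, so these genotypes count as lower whatever total is used. Totals were also taken without mdm-miR164b and mdm-miR482d, the miRs with the most reads over all stigmas. The difference was then -4.21 percentage points, with p = 0.031 (exact sign-flip test). The p fell because Spadona, on its 2 exudate reads, also turned lower, so that all 6 genotypes were lower. The exudates at 0 still give 4 of these 6 signs.

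The 3p rows had the opposite order of mean shares. They made 0%, 2.27%, 3.70%, 2.44%, 0% and 2.04% of the exudates of Golan, Manara, SASA, Hosui, Shinsui and Spadona, against 0.362%, 0.732%, 0.630%, 0.890%, 0% and 0.977% of the stigmas. The exudate value was the higher in 4 genotypes and the lower in Golan, and both were 0 in Shinsui. The mean was 1.74% ± 1.47 in exudates and 0.598% ± 0.364 in stigmas (SD, n = 6 each), a difference that did not pass the exact sign-flip test (p = 0.125). On a scale of log2 (CPM + 1) with TMM-scaled totals the mean difference was -2.02 (exact sign-flip test, p = 0.69). There the exudates without a 3p read, 2 of 6, take their value from the pseudocount of 1, so no direction is read from it. Over all 6 members the shares were 2.52% ± 2.33 in exudates and 3.11% ± 1.91 in stigmas (SD, n = 6 each; exact sign-flip test, p = 0.47). When only the highest row of each arm was counted, this difference changed sign, to 0.59 percentage points higher in exudates (exact sign-flip test, p = 0.41).

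**Figure D2:**
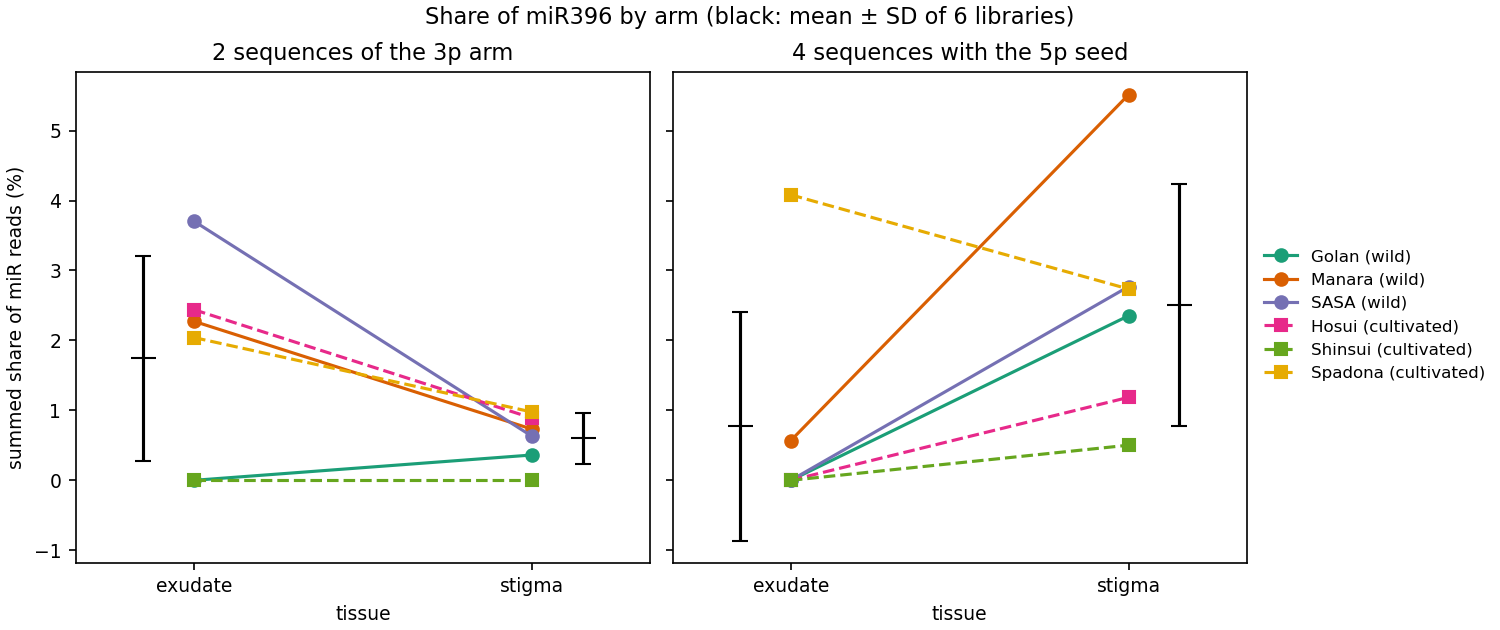
Summed share of all miR reads, in percent, of the 3p rows (left panel) and the 5p-type rows (right panel) in exudate and stigma, with 1 line per genotype and the mean with SD of 6 libraries in black. The 3p share is higher in the exudate of 4 genotypes, and the 5p-type share is lower in the exudate of 5, Spadona being the exception at 4.08% against 2.73%.

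Pooled over genotypes, the 5p-type rows had 3 of 422 exudate reads and 178 of 5276 stigma reads, a ratio of shares of 0.211 (95% exact interval 0.043 to 0.626). The 3p rows had 7 exudate and 32 stigma reads, a ratio of 2.73 (95% exact interval 1.02 to 6.31). At the stigma shares of each genotype, the exudates would have held 13.9 5p-type reads, where 3 were seen, and 2.48 3p reads, where 7 were seen. Manara gave 9.71 of the 13.9 and had 1 read, and was the only genotype whose 95% intervals for the 5p-type share did not overlap between tissues. In the other 5 genotypes the stigma share lay under what a 0 in the exudate allows at 3 reads. There even an exudate without a read would have overlapped, so depth sets Manara apart. Leaving out a genotype, tried after seeing the data, gave a 5p-type ratio of 0.356 (95% exact interval 0.042 to 1.33) without Manara, 0.0779 without Spadona, and 0.210 to 0.251 without any of the others. The 3p ratio then ran from 2.25 to 3.24, and its interval held 1 in 5 of the 6 cases, all but that without Shinsui. These intervals cover counting error only: they leave out the spread between genotypes, and PCR copies or reads counted in several rows would make them wider. For mdm-miR396a the pooled exudates allow up to 0.711% at 3 reads, which is above its pooled stigma share of 0.436%, so its lower level in exudates was not detectable at this depth. The same held for ppe-miR396a, with a stigma share of 0.417%.

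Among the 35 miRs with at least 10 reads in all, edgeR's quasi-likelihood test called 7 at an adjusted p of 0.05 (20.0%), all lower in exudate than in stigma. One of the 6 members was among them, which is close to that background. mdm-miR396b had a log2 fold change of -3.05 ± 1.17 (SE), exudate over stigma, with an adjusted p of 0.049 (edgeR). The call rests on 1 exudate read against 67 stigma reads, whose ratio of pooled shares, 0.187, had a 95% exact interval of 0.0047 to 1.08. It was lost with the genotype as a replicate block (adjusted p = 0.071, edgeR), without TMM scaling (adjusted p = 0.30), without a filter on low counts (adjusted p = 0.069), with P. syriaca alone (adjusted p = 0.15), and when Golan, Hosui, Manara, SASA or Shinsui was left out (adjusted p of 0.092 to 0.33). It was kept by DESeq2 (adjusted p = 0.040) and without Spadona (adjusted p = 0.011), that is by 2 of 11 alternatives.

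The remaining members did not pass the test. mdm-miR396c, nearly the same sequence, had a log2 fold change of -2.13 ± 1.03 (SE; adjusted p = 0.11, edgeR) from 2 exudate reads. For mdm-miR396a and ppe-miR396a the adjusted p was 0.10 each (edgeR), and no fold change is given because no exudate held a read. For fve-miR396a-3p the log2 fold change was 0.00 (adjusted p = 0.996, edgeR), and it was 1.0 without TMM scaling and -0.75 without a filter on low counts, so no direction can be given. fve-miR396b-3p had a log2 fold change of 0.72 ± 1.11 (SE; adjusted p = 0.72, edgeR).

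The median log2 fold change was -2.59 over the 6 members and -1.43 over all 35 miRs tested. The member median includes fitted values for the rows without an exudate read. Without TMM scaling the median of all 35 moved to -0.29, and the 3p rows then had a median of 1.40, against 0.36 with it. The TMM factors ran from 0.798 to 4.34 in exudates and from 0.417 to 1.002 in stigmas, the highest being that of the SASA exudate with 27 reads, so fold changes between tissues lean on this scaling. Of 9 tested miRs from other families known to regulate transcription factors, 3 were called (mdm-miR159d, mdm-miR164b and mdm-miR169a), against 20.0% of all tested. All 9 had negative log2 fold changes with a median of -3.25, but most of all 35 were negative as well, with the median of -1.43. The 9 rows belong to miR159, miR164, miR169 and miR319 only. Rows of 1 family may share reads, so they are not 9 independent values. Of the 9, 3 had no exudate read, so their fitted values are no bound either.

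**Figure D3:**
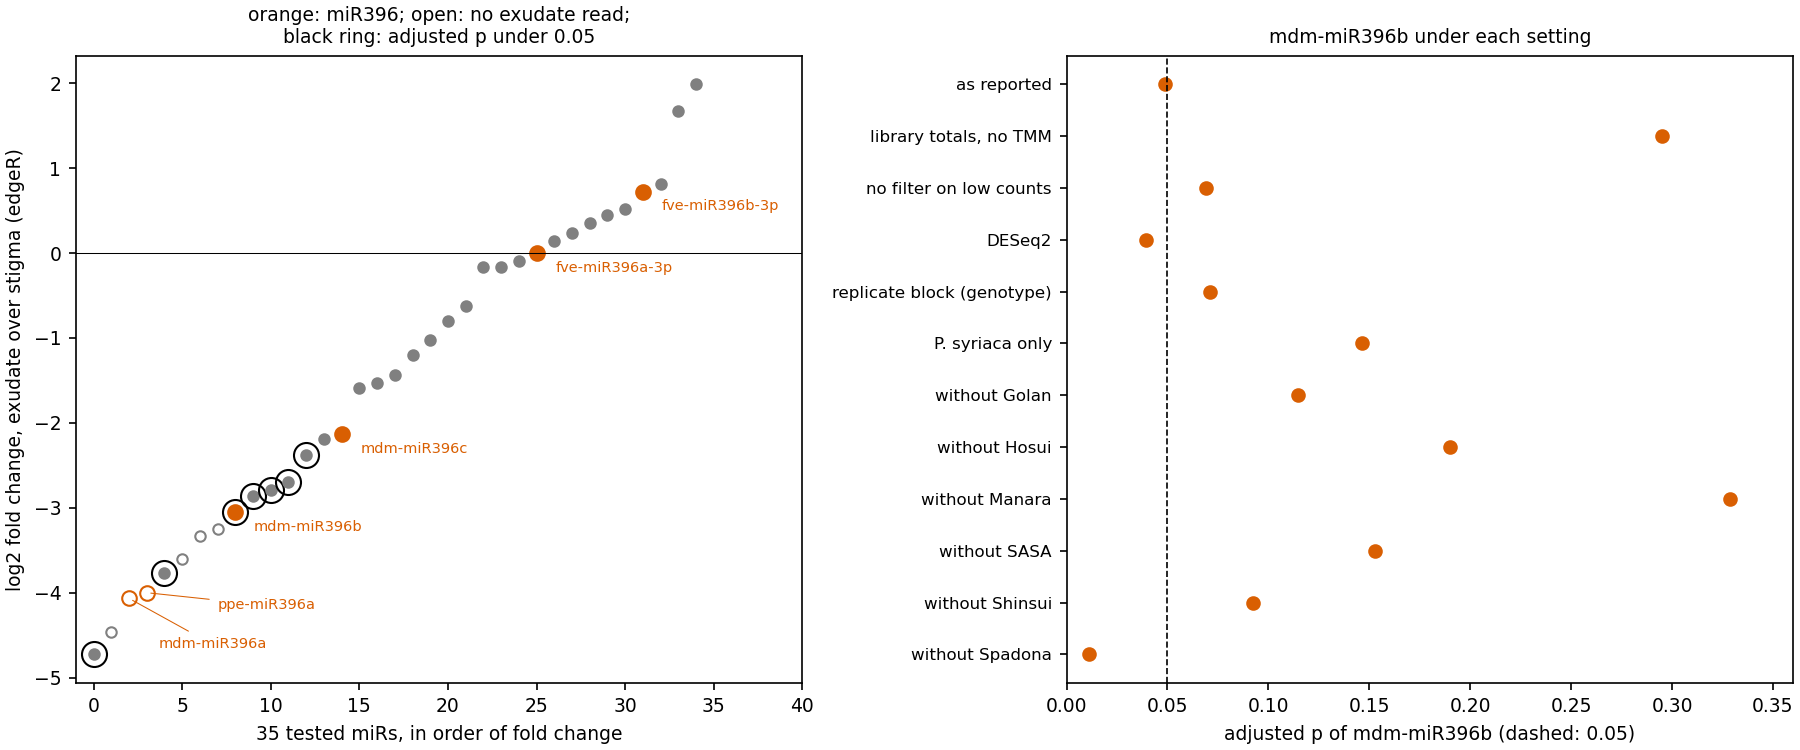
Left, log2 fold change of exudate over stigma (edgeR) for the 35 tested miRs in rising order, with miR396 in orange, miRs without an exudate read as open points (their fitted value is no bound), and black rings for an adjusted p under 0.05. Right, the adjusted p of mdm-miR396b as reported (0.049) and under 11 alternatives, 9 of which lie to the right of the dashed line at 0.05.

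The split between arms within a library does not depend on how libraries are scaled to each other. In exudates the 3p rows made 4 of 5 miR396 reads in Manara, the only read in SASA and in Hosui, and 1 of 3 in Spadona, while Golan and Shinsui had none of either arm. In stigmas they made 6 of 45 in Golan, 13 of 111 in Manara, 5 of 27 in SASA, 3 of 7 in Hosui, 0 of 1 in Shinsui and 5 of 19 in Spadona. The 3p share was higher in the exudate than in the stigma of all 4 genotypes that had reads in both, by 53.5 percentage points on average (SD 32.5).

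This comparison was chosen after the values had been seen. Its exact sign-flip test gave p = 0.125, the smallest that 4 genotypes allow, so the design could not pass the threshold. Pooled, the 3p share was 70.0% of 10 exudate reads (95% Wilson interval 39.7 to 89.2%) and 15.2% of 210 stigma reads (11.01 to 20.7%), again for counting error only. With the sums replaced by the highest row of each arm the mean difference was 45.8 percentage points, and for the genotypes with at least 2 exudate reads, Manara and Spadona, it was 37.7. When only the rows of both strawberry hairpins were used it was 49.7, with 3 of 4 genotypes higher in exudate.

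**Figure D4:**
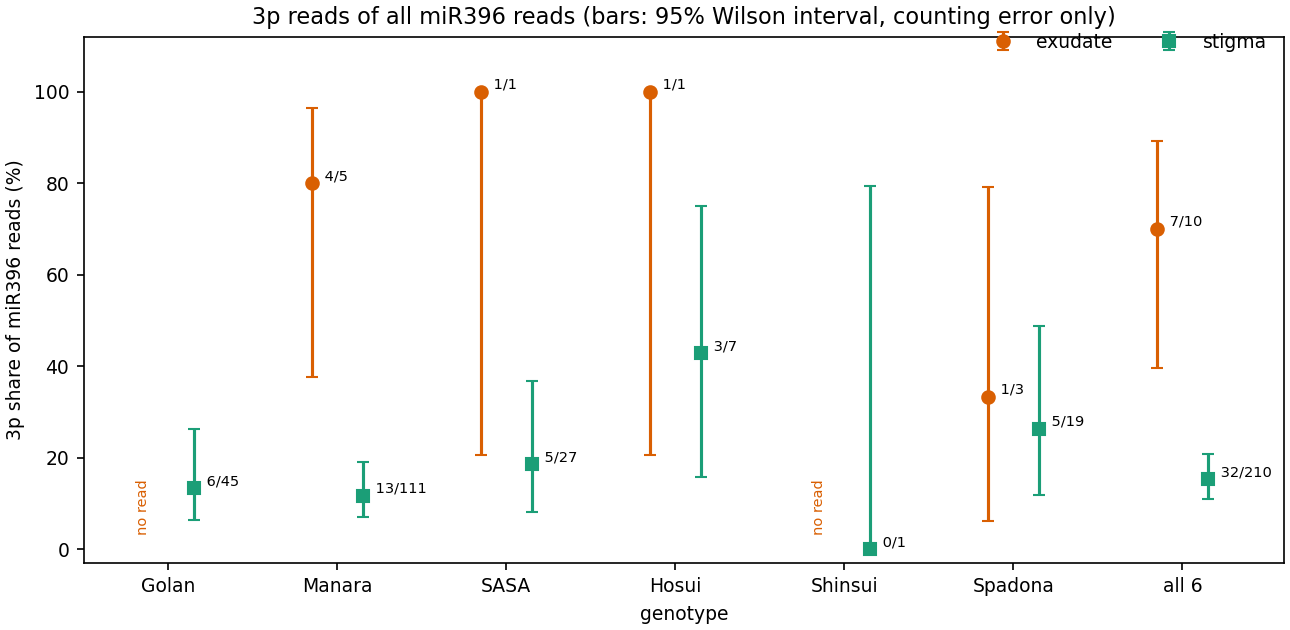
Share of miR396 reads that were of the 3p arm, in percent, in exudate and stigma of each genotype and summed over all 6, with 95% Wilson intervals for counting error and the reads beside each point. The exudate point lies above the stigma point in Manara, SASA, Hosui and Spadona, where it rests on 1 to 5 reads.

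By hairpin, fve-MIR396a had 4 reads of its 3p arm and 1 of its 5p arm in exudates, against 22 and 67 in stigmas. The 5p arm was the more read in all 6 stigmas. fve-MIR396b had 3 reads of its 3p arm and 2 of its 5p arm in exudates, against 10 and 66 in stigmas, where the 5p arm was the more read in 4 libraries and equal in 2. Each 5p sequence is also made by other hairpins of the table, and fve-miR396a-3p is also listed as fve-miR396c-3p. By contrast, fve-miR396b-3p is listed for 1 name only. The 42 rows with 3p in the name from other families made 5.21% of all exudate reads (22 reads in 7 rows) and 9.50% of all stigma reads (501 reads in 12 rows). Without mdm-miR482a-3p, which had 8 exudate and 289 stigma reads, these shares were 3.32% and 4.02%, and their difference was not tested.

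Within the stigma the 3p share lay below the 5p-type share in 6 of 6 libraries, by 1.91 percentage points on average, which passed the exact sign-flip test at its smallest p of 0.031. That p needs all 6 signs, and those of Shinsui (0 reads against 1) and Hosui (3 against 4) rest on few reads. The 5p-type rows of Hosui may also share reads. The arms are not covered alike either, since the 3p rows hold strawberry sequences only. Pear 3p reads further from these than the mismatches allowed would not be counted, and their number was not tested. When the highest row of each arm was compared in place of the sums of 2 and 4 rows, the difference was 0.62 percentage points and no longer passed (p = 0.063, exact sign-flip test). With any 1 genotype left out, p is bounded by the 5 libraries at 0.063. By mean share, mdm-miR396b stood in place 11 and mdm-miR396c in place 13 of the 114 miRs read in stigma, fve-miR396a-3p in place 21 and fve-miR396b-3p in place 30. Of the 61 miRs read in exudates, fve-miR396b-3p stood in place 18, fve-miR396a-3p in place 23, mdm-miR396c in place 34 and mdm-miR396b in place 37, all from 1 to 4 reads, and the first of these rests mainly on the single SASA read.

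Wild and cultivated stigmas were compared next, as 3 P. syriaca libraries against 2 of P. pyrifolia and 1 of P. communis. The 5p-type share was 3.55% ± 1.72 in wild and 1.47% ± 1.14 in cultivated stigmas (SD, n = 3 each). The groups overlapped, since Golan at 2.35% lay below Spadona at 2.73%, and the exact permutation test gave p = 0.2 where 0.1 is the smallest possible. With the highest row of each arm in place of the sums the groups did not overlap, and the difference was 0.73 in place of 2.07 percentage points (exact permutation test, p = 0.1). Without Manara the difference of the sums was 1.09. The 3p share was 0.574% ± 0.191 in wild and 0.622% ± 0.541 in cultivated stigmas (SD, n = 3 each; exact permutation test, p = 1). All 6 members together made 4.12% ± 1.87 of wild and 2.10% ± 1.60 of cultivated stigma reads (SD, n = 3 each; exact permutation test, p = 0.3), a difference of 2.02 percentage points that was 0.96 without Manara.

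Of the 30 miRs with at least 10 stigma reads, edgeR called 1 between wild and cultivated stigmas (3.33%), mdm-miR482d, and no member. The log2 fold changes, wild over cultivated, were 0.88 for mdm-miR396a, 0.42 for mdm-miR396b, 0.61 for mdm-miR396c, 0.79 for ppe-miR396a, -0.57 for fve-miR396a-3p and -1.17 for fve-miR396b-3p, with adjusted p of 0.52 to 0.70 (edgeR; unadjusted, 0.27 to 0.61). Their median was 0.51, against 0.67 for all miRs tested, and library totals were larger in wild stigmas (794 to 1777) than in cultivated ones (199 to 512). In exudates, 6 miR396 reads came from the wild and 4 from the cultivated genotypes, too few for a comparison.

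The miRs whose shares over the 12 libraries were most like the summed miR396 share were mdm-miR482a-3p (cosine similarity 0.77), fve-miR1511 (0.74) and mdm-miR159a (0.73), among 29 compared with a median of 0.58. The 12 libraries share depth and tissue differences with every miR, so these values describe the profile only. Among the larger summed miR396 shares were 6.12% in the Spadona exudate (3 reads) and 3.70% in the SASA exudate (1 read). The similarities therefore lean in part on few reads.

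The target tables pair miRs with Arabidopsis transcripts by sequence alone. mdm-miR396a had 15 pairings and mdm-miR396b 16 in the stigma table of 163 pairings, and fve-miR396a-3p had 2 in the exudate table of 73. mdm-miR396c, ppe-miR396a and fve-miR396b-3p had none in either table, which hold 19 miRs for exudate and 23 for stigma. By the study's criteria mdm-miR396c and fve-miR396b-3p were set aside, so they may not have been searched. mdm-miR396b was set aside as well but is listed, whereas ppe-miR396a, stigma-specific by those criteria, is not. Which of these sequences were searched is not stated, so a missing row does not show a lack of predicted targets. The loci listed for mdm-miR396a and mdm-miR396b numbered 17, of which 14 were listed for both: AT1G23930, AT1G36080, AT2G15630, AT2G23710, AT2G34530, AT3G19040, AT3G47330, AT4G09370, AT4G28960, AT5G01370, AT5G37390, AT5G43060, AT5G44415 and AT5G57590. AT1G01520 was listed for mdm-miR396a alone, and AT1G60120 and AT1G60140 for mdm-miR396b alone. The stigma table holds no gene names, so GRF genes could not be looked up by name.

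The sites most often paired are shown, 5′ to 3′, with the bases facing the seed in capitals, because they show how the 2 arms differ in their predicted targets.
5p-type site listed most often: ucguucaaggaagCUAUGGAg
5p-type site with the most pairs: gaguucaagaaagUUAUGGAa
fve-miR396a-3p site: cuuuccauaguuuUGUUGAGc

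The site listed most often stood in 16 of the 31 5p-type pairings, at 10 loci, and formed 16 Watson-Crick pairs. The site with the most pairs stood in 4 pairings, with 18 Watson-Crick pairs for mdm-miR396b and 17 for mdm-miR396a, which differ in base 20. The 3p site formed 16 Watson-Crick and 5 G-U pairs with no unpaired base. Of the 14 shared loci, 7 were listed at a different position for mdm-miR396b than for mdm-miR396a, and sites of the same sequence stood at several loci, so which site belongs to which locus is uncertain in this table. Counted here base against base without gaps, between 15 and 18 of 21 bases formed Watson-Crick pairs over all these pairings. These counts equalled those of the deposited alignment for 6 of 15 mdm-miR396a pairings, 6 of 16 of mdm-miR396b and both of fve-miR396a-3p. Those of the site listed most often did not, so its 16 pairs are uncertain.

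The 2 loci of fve-miR396a-3p were AT3G54280 (positions 1031 to 1051 of the transcript) and AT2G46060 (1124 to 1144). The same site sequence was given for both, so here too the locus it belongs to is uncertain. Both loci were among the 25 of the pollen table, which the paper drew from the exudate targets, 47 loci in all. It names AT3G54280 as ROOT GROWTH DEFECTIVE 3 (RGD3) and AT2G46060 as a transmembrane protein-like protein. In the lists of Gene Ontology (GO) terms, AT3G54280 appeared in 7 of 29 exudate terms, and AT2G46060 in none. The 7 included DNA binding and anatomical structure development. Of all 47 loci of the exudate table, 39 (83.0%) appeared in at least 1 of these 29 terms. Of the 17 5p-type loci, 7 appeared in at least 1 of the 49 stigma terms, against 101 of all 120 loci of the stigma table (84.2%). AT1G01520 and AT3G19040 were among the 44 loci under transcription factor activity, and AT5G01370 among the 28 under reproductive process. The pairings are predictions in Arabidopsis, and no transcript was measured in pear.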

How the data were processed

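Small RNA of 6 exudates and 6 stigmas was sequenced. Per the labels and methods, the authors trimmed reads with Cutadapt 1.1 and filtered them with FASTX. They assigned them with miRExpress to Rosaceae miRs of miRBase, allowing 7% mismatches. Assignment also allowed an offset from the mature sequence and a partial overlap with it. The deposited counts are whole reads per unique mature sequence. The authors averaged the counts of sequences listed more than once, and normalized nothing. Target tables came from psRNATarget, and the positions and loci there (other deposited columns) were used as given. Statistics that the authors deposited with GO terms (p-values) were not used.

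Counts were tested with edgeR 4.0.16 (quasi-likelihood, TMM, at least 10 reads in all, Benjamini-Hochberg, 0.05) in R 4.3.3, with DESeq2 1.42.0 as an alternative. edgeR's own filter left 3 miRs and no member. Shares were tested with exact sign flips over 6 genotypes, or an exact permutation of 3 against 3, in Python 3.11.15 (numpy 2.4.6, pandas 2.3.3, scipy 1.17.1, matplotlib 3.10.9). Both libraries of a genotype share that genotype by the labels, which pairs them. Deviations of the exudate and stigma of a genotype from their tissue means correlated at -0.72 to 0.93 over 35 miRs. On simulated data of the real depth, the edgeR test with TMM made more false calls than its threshold implies when abundant miRs were changed, and on deeper simulated data it did not. Members and lists were chosen with earlier results of these data known. Named were the members, other rows of the family, the 3 miRs most alike in profile, called miRs where 5 or fewer, and every paired locus. mdm-miR159d, mdm-miR164b and mdm-miR169a were named after their values were seen. Pooled flowers make each library 1 sample, and p-values of the exact tests measure the spread between genotypes. The main edgeR fit between tissues had no genotype term and took the 12 libraries as independent. The genotype entered only in the alternative with a replicate block.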

Additional observations from a re-analysis of the deposited data

Results flagged for a closer look

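In the exudates, Spadona stood far from the other 5 genotypes in mdm-miR396b (2.04% of its miR reads, 0 elsewhere), in mdm-miR396c (2.04%, next 0.568%) and in the sum of the 5p-type rows (4.08%, next 0.568%). The single-row values rest on 1 read of 49 each, and the sum on 2, in rows that may share reads. Of 16 sets of 6 libraries examined for a library far from the rest, 3 held one, where chance gives about 1 in 20 for measured values. That rate does not carry over to rows at 0 in most libraries, where any single read stands apart. The 3 sets overlap, and the cause was not tested.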

How the results depend on the processing

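With 10 miR396 reads in all exudates, depth limits the comparison: a single exudate shows neither absence nor a moderate difference. Between the tissues 7 miRs were called, against 1 without TMM scaling, 0 of 3 with edgeR's own filter (1 at an unadjusted p under 0.05), 0 in P. syriaca alone (5 at an unadjusted p under 0.05), 3 to 6 with a genotype left out (3 without Manara), and 6 with the replicate block. Between wild and cultivated stigmas 1 was called, against 0 without TMM scaling (8 at an unadjusted p under 0.05), 2 of 8 with edgeR's own filter, 4 without a filter, 0 with DESeq2 (1 at an unadjusted p under 0.05), and 0 to 5 with a library left out (0 without Hosui, Golan or Manara, with 1 or 2 at an unadjusted p under 0.05, and 5 without SASA). No member was among the calls between stigmas in any fit.

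The log2 fold change of fve-miR396a-3p between tissues (0.00) was -0.75 without a filter, -0.032 with DESeq2, -0.05 without Hosui and -0.99 without Manara, the lowest of the values with a genotype left out (highest 0.46). Between wild and cultivated stigmas it was 0.33 without a filter and ran from -1.06 to 0.67 with a library left out, 0.67 being without Spadona, which is P. syriaca against P. pyrifolia. There mdm-miR396b ran from -0.30 to 0.82 and mdm-miR396c from -0.11 to 1.36, both negative only without Manara. mdm-miR396a ran from 0.33 to 5.15 and ppe-miR396a from 0.24 to 5.06, both highest without Spadona, the only cultivated stigma with a read of either. Beside mdm-miR396b between tissues, 94 of 103 member values under the alternatives kept direction and side of the threshold, and the 9 others are these turned signs, not past it. The replicate block changed no call of a member other than mdm-miR396b.

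The share of all 6 rows, exudate minus stigma (-0.59 percentage points), was 0.59 with the highest row of each arm, -1.79 with totals without mdm-miR482d and mdm-miR164b, and -5.80 on the log2 scale with TMM-scaled totals (exact sign-flip test, p = 0.031). For the 5p-type rows (-1.74) the highest row gave -0.62 (p = 0.16, exact), those totals -4.21 and the log2 scale -10.3 (p = 0.031, exact, for both). For the 3p rows (1.14) these gave 1.21, 2.41 and -2.02. The log2 values are set mostly by the exudates without a read and the pseudocount of 1 CPM, and are no measure of the size or direction of a change. With a genotype left out these ranged from -1.19 to -0.03, from -2.35 to -1.09 (without Manara) and from 0.76 to 1.45. In stigmas the 3p share, wild minus cultivated (-0.05), was 0.13 for P. syriaca against P. pyrifolia, -0.87 with totals without mdm-miR482d and mdm-miR164b (p = 0.4, exact), and ran from -0.36 to 0.13 with a library left out, positive without Golan, Hosui or Spadona. 3p minus 5p-type rows in stigma (-1.91) was -0.62 with the highest row of each arm (p = 0.063, exact) and ran from -2.24 to -1.34 with a genotype left out (p = 0.063, exact). At least 1 read in place of 2 made 4 members present in exudates in place of 1. Adding mdm-miR396f, chosen after seeing the data like the test of the arm split, changed no direction of the shares.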
